A study of Mus musculus with 29 samples.

Results

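Collagen chain genes encode the polypeptides that wind around each other, 3 to a molecule, into the collagens of the extracellular matrix. In the expression table of 29 mouse mammary fat pads, 44 symbols have the form of a collagen chain (Col, a type number, the letter a and a chain number), and 37 of them reached a deposited value of 6 on the log2 scale, equal to 39.9 normalized counts, in at least 4 libraries. These 37 of 30818 listed genes are described here: 10 fibrillar chain genes, 8 basement membrane chain genes and 19 of other types. The nearest members inside the minimum were Col24a1, which reached it in 6 libraries, and Col4a3 in 11, and the nearest outside were Col25a1 in 3 libraries and Col9a1 in 2. No member needed a single group to reach the minimum, and all 37 entered the fit.

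The libraries were made from total RNA of the 9th mammary fat pad of C57BL/6N mice, labelled wild type (wt), after growth of injected E0771 mammary cancer cells in the opposite, 4th fat pad. Each title names its own animal. All 6 groups carried such a tumour. Obese mice had first been fed a diet with 60% fat, and 4 groups were then moved to another diet: LFD, a low-fat diet fed without restriction (5 libraries); LFCR, a low-fat diet with calories cut by 30% (5); MCR, a Mediterranean-style diet with the same cut (4); and ICR, intermittent calorie restriction (5). Obese mice that were not moved (5 libraries) and Control mice kept on a control diet (5 libraries) completed the set, and cells were injected 25 weeks after the first randomization. LFCR, MCR and ICR together are called the CR diets below. The sample titles and a cell line field name the tumour, whereas the tissue field and the design text name normal contralateral tissue, and the adipocyte marker list was high in every library (group means from 15.5 in LFCR to 14.2 in Control on the log2 scale).

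Fibrillar collagens form the banded fibers of connective tissue: types I and III make most of the fiber, and type V chains are needed to start it. Basement membrane collagens form the thin sheets under epithelium and around vessels and each fat cell, where the type IV chains make a network and types XV and XVIII sit at its edge. Among the other types, type VI forms beaded filaments that surround fat cells, the fibril-associated types XII, XIV, XVI and XX bind to the surface of fibers, type VII anchors epithelial basement membranes to the stroma, and types XIII, XVII and XXIII span the cell membrane. In obesity, adipose tissue is known for enlarged fat cells and, with time, for fibrosis.

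Recovered read totals were between 16403903 and 49026986 per library, with a median of 37270234, and the 5 libraries whose headers name sequencing lane 4 were the shallowest (at most 18212783 reads, against at least 29008340 elsewhere). No lane held more than 1 library of a group. 8 libraries stood apart in a list of 13 B cell markers: LFD 1, LFCR 1 and 3, MCR 1, 3 and 4, and Obese 1 and 5 had list means of 5.67 to 6.53 (log2), against 10.0 to 12.6 in the other 21. Calls of collagen chain genes are therefore also described without these 8 libraries. That leaves 1 MCR library, the shallow MCR 2 of lane 4, assumed to vary like the other groups. Shares, sums, gene lists and chain ratios are given with all 29 libraries only. Obese 2 had the highest skeletal muscle list mean of all 29 libraries, 11.8. Values of a group are given below in the order of its library numbers.

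Per length of transcript, a few chains made most of the collagen RNA. Divided by the length of the longest principal transcript, Col3a1 of type III averaged 6479 ± 2732 normalized counts per kb over the 29 libraries (SD) and held 19.1% of the sum over the 37 genes. It was followed by the paired basement membrane chains Col4a1 (4445 ± 1649 per kb) and Col4a2 (3452 ± 1594), and by the type I chains Col1a2 (2950.2 ± 1248) and Col1a1 (2941 ± 1357). The first 5 together held 59.9% of the sum, and the first 14 held 95.3%. Neighbours in this order lay close together against the spread between libraries: Col1a2 and Col1a1 differed by far less than either SD. Col24a1 and Col4a3 were lowest, and Col4a3 had 4.56 ± 1.98 per kb.

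**Figure D1:**
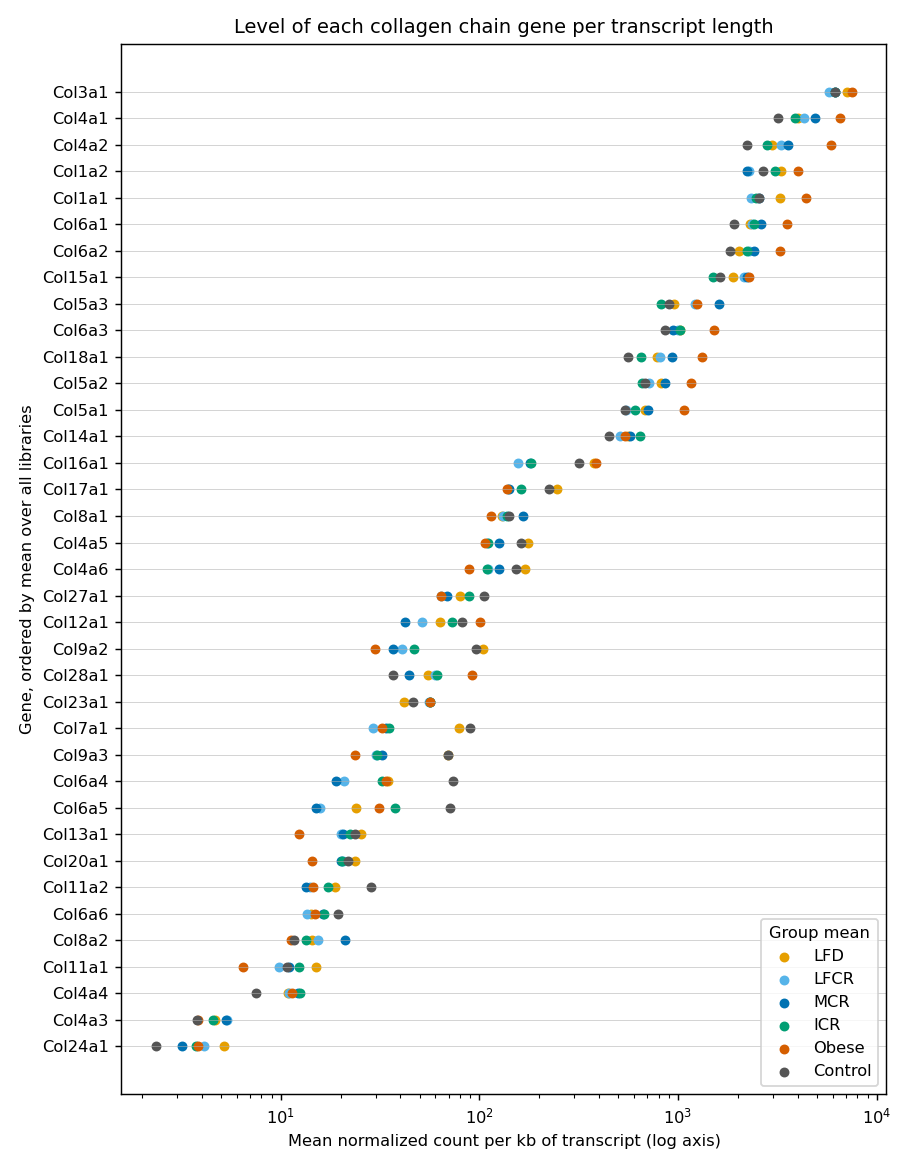
Mean normalized count per kb of transcript (log axis) of the 37 collagen chain genes, ordered by their mean over all 29 libraries, with 1 point for each of the 6 group means. Obese points lie at the right end of the row for Col4a1, Col4a2, Col1a1, Col1a2 and the type VI chains Col6a1, Col6a2 and Col6a3, and at the left end for Col9a2, Col9a3 and Col13a1.

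By class, fibrillar chains made 44.6% ± 5.4 of the per-length sum, basement membrane chains 32.7% ± 4.9 and the other types 22.7% ± 1.8 (SD over 29 libraries). The basement membrane share was 35.6% ± 0.95 in Obese pads and 28.4% ± 2.5 in Control pads (SD, n = 5 each), with ranges of 34.6% to 37.1% in Obese and 24.6% to 30.9% in Control that did not overlap. The fibrillar share was 42.3% ± 2.2 in Obese pads, against 48.6% ± 2.3 in Control pads. LFCR and MCR pads were close to Obese pads on average. Their basement membrane shares were 35.1% ± 4.2 and 35.1% ± 2.7, and their fibrillar shares 42.3% ± 4.6 and 42.7% ± 2.8. The LFD and ICR pads spread widely, with fibrillar shares of 39.9% to 55.9% and 33.0% to 52.4%. The summed level of all 37 genes was 45632 ± 16415 per kb in Obese pads, against 27919 ± 5959 in Control pads, and Obese libraries ranged from 27135 to 71208. These shares and sums are descriptions and were not tested. In whole-tissue RNA, more cells of a type and more RNA per cell cannot be told apart, here or in any result below.

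Obese pads were compared with Control pads to ask what the collagen genes did in obesity. In Obese pads 6 of the 37 collagen chain genes were higher and 4 lower (limma, Benjamini-Hochberg adjusted over 19387 genes, threshold 0.05), a share to be read against the 12.9% of all genes tested that were called (9.44% higher and 3.44% lower). The higher genes were 3 of 8 basement membrane chains (Col4a1, Col4a2 and Col18a1), 1 of 10 fibrillar chains (Col5a1) and 2 of 19 others (Col6a1 and Col28a1). The lower ones were the fibrillar Col27a1 and, among the others, Col7a1, Col9a3 and Col20a1. Differences are given on the deposited log2 scale with their standard errors (±), and this scale understates the change of genes with low counts. The median log2 difference was 0.46 for basement membrane chains, 0.34 for fibrillar chains and -0.16 for the other types, beside -0.031 for all genes tested. Without the 8 libraries low in B cell markers 5 members were called, Col4a1, Col4a2, Col18a1 and Col28a1 among them. Over all genes 628 were called in that fit, against 2496 with all libraries.

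Col4a2, which encodes the second chain of the common type IV collagen, showed the clearest rise of the basement membrane class. Its normalized counts were 42709, 32638, 35314, 20898 and 58500.0 in Obese 1 to 5, against 11649, 13568, 18988, 15798 and 11762 in Control 1 to 5. Every Obese library lay above every Control library, and the mean of 38012 ± 13882 in Obese pads stood against 14353 ± 3091 in Control pads (log2 difference 1.35 ± 0.26, limma adjusted p = 0.00154). Its partner Col4a1 had 49511, 37320.5, 40907, 24534 and 63318 in Obese pads, against 16748, 20728, 28265, 22392 and 16982 in Control pads. Here the groups overlapped, because Obese 4 lay below the highest Control library, and the log2 difference was 0.99 ± 0.26 (limma adjusted p = 0.0129). Col18a1, the type XVIII chain whose end piece is endostatin, had 8209, 4902, 5514, 3645 and 9237 in Obese pads, against 1969.6, 2786, 3510.2, 2995 and 2179.5 in Control pads. These groups did not overlap (log2 difference 1.17 ± 0.29, limma adjusted p = 0.00938). Obese 1 and 5, low in B cell markers, held the highest Obese counts of Col4a2, Col4a1 and Col18a1. No Control library was low in these markers. The rises of Col4a2 and Col18a1 passed the test without any single library and in all 9 other settings, and that of Col4a1 was lost only without Obese 5 (limma adjusted p = 0.0565).

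The other basement membrane chains did not pass the test. Col15a1, the type XV chain found beside vessel and muscle basement membranes, had 11829.8 ± 5225 in Obese pads and 8387 ± 2669.7 in Control pads (log2 difference 0.46 ± 0.29, limma adjusted p = 0.284). The X-linked pair Col4a5 and Col4a6, which together make the type IV network of some epithelial and smooth muscle sheets, had log2 differences of -0.54 and -0.67 (limma adjusted p = 0.165 and 0.110). Col4a3 and Col4a4, which join Col4a5 in the kidney glomerulus, were at -0.0093 and 0.47 (limma adjusted p = 0.984 and 0.221). Beside the rise of Col4a1, Col4a2 and Col18a1, 4 of 7 endothelial markers were higher in Obese pads (Pecam1 0.40, Cdh5 0.90, Tie1 0.69 and Tek 0.75, log2 differences), and the list mean was 11.5 to 12.4 in Obese pads and 11.2 to 11.5 in Control pads. The part of endothelial markers in the collagen result was not tested.

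**Figure D2:**
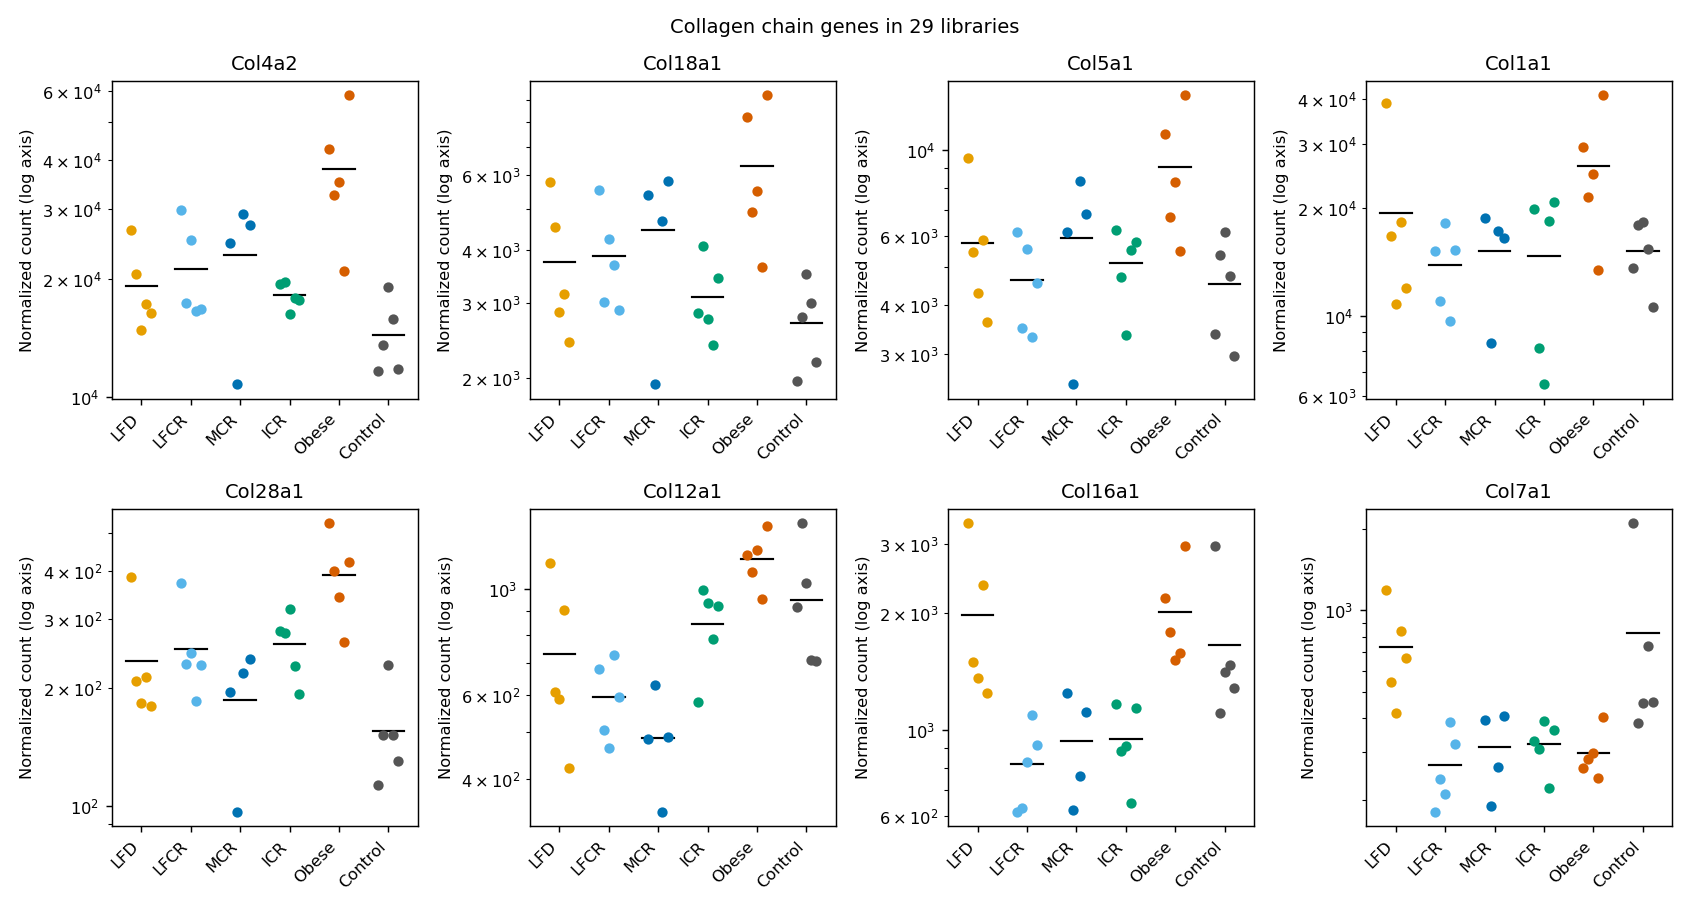
Normalized count (log axis) of 8 collagen chain genes in the 29 libraries, with 1 point per library and a line at the group mean. Col4a2, Col18a1 and Col28a1 are highest on average in Obese pads, Col16a1 is low in the 3 CR diets, and Col7a1 is higher in LFD and Control pads than in the other groups on average.

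The main fiber chains were less clear. The type I chain Col1a1 had 29524, 21378, 24820.3, 13403 and 40956 in Obese pads, against 13611, 17839, 18258, 15353 and 10622 in Control pads. Most Obese libraries were above the Control range, but Obese 4 was inside it, and the log2 difference was 0.71 ± 0.35 (limma adjusted p = 0.183), which did not pass. Col1a2, the second chain of type I, was at 0.56 ± 0.32 (limma adjusted p = 0.247), and Col3a1 at 0.23 ± 0.38 (limma adjusted p = 0.703). Neither Col1a1, Col1a2 nor Col3a1 passed the test in any of the 8 pairwise comparisons. Of the type V chains, Col5a1 had 10963, 6717, 8288, 5498 and 13777 in Obese pads, against 3363, 5379, 6162, 4736 and 2952 in Control pads. The groups overlapped through Obese 4, and Col5a1 was called with a log2 difference of 0.97 ± 0.31 (limma adjusted p = 0.0369). That call was lost when any of Obese 1, 3 or 5 or Control 1 or 5 was left out (up to limma adjusted p = 0.134) and in 6 of 9 other settings (up to 0.175). Col5a2 was at 0.71 ± 0.29 (limma adjusted p = 0.1). Col27a1, a minor fibrillar chain known from cartilage, had 425, 483, 522, 586 and 436 in Obese pads, against 875, 1057, 663, 637 and 790.2 in Control pads. Its groups did not overlap (log2 difference -0.67 ± 0.19, limma adjusted p = 0.0186), and the call was lost without Obese 1, Obese 5, Control 1 or Control 2 (up to limma adjusted p = 0.0638) and without the 8 libraries low in B cell markers (0.0745).

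Among the other types, Col28a1, a chain with von Willebrand A domains described around peripheral nerve in mice, rose most. It had 528, 398, 342, 263 and 419 normalized counts in Obese pads, against 113, 152, 230.2, 152 and 130.5 in Control pads. All Obese libraries were above all Control libraries, with a log2 difference of 1.2 ± 0.23 (limma adjusted p = 0.00145), and the call held without any single library and in all 9 other settings. None of 6 Schwann cell markers was called in this comparison (list means of 8.38 to 9.27 in Obese pads and 8.58 to 9.25 in Control pads). The 250 bases before its annotated start are shown because this gene carried the most stable rise outside the basement membrane class (RefSeq, GRCm38.p6, chr6:8192618-8192867, minus strand, written 5′ to 3′). They hold none of the 3 promoter motifs searched on both strands: the GC box GGGCGG, the CCAAT box CCAAT and the TATA box TATAAA.
Col28a1: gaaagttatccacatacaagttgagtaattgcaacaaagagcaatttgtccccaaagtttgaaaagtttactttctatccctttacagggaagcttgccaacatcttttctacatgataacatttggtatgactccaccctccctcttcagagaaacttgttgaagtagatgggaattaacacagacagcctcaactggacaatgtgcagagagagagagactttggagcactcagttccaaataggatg

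Type VI collagen forms the beaded filament around fat cells. Its 3 main chains had similar positive log2 differences in Obese pads, and 1 of them passed the test. Col6a1 had 15094, 10820.2, 12409, 10077 and 23969 in Obese pads, against 5826, 10017, 9965, 7668 and 5894 in Control pads, without overlap by a narrow margin (log2 difference 0.84 ± 0.27, limma adjusted p = 0.0428). Col6a2 at 0.82 ± 0.29 (adjusted p = 0.0569) and Col6a3, the source of the fragment endotrophin, at 0.86 ± 0.30 (adjusted p = 0.0563) fell just short in limma. The Col6a1 call was as marginal: it was lost without Obese 1 or 5 or Control 1, 4 or 5 (up to limma adjusted p = 0.163) and in 8 of 9 other settings. Col14a1, a fibril-associated chain, was at 0.23 ± 0.33 (limma adjusted p = 0.647), and Col12a1 at 0.32 ± 0.22 (limma adjusted p = 0.326).

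Col7a1, Col9a3 and Col20a1 fell in Obese pads. Col7a1, the anchoring fibril chain, had 262, 284, 298, 241 and 404 in Obese pads, against 2096, 386, 457, 742 and 459 in Control pads. The Obese libraries were tightly grouped, and Control 1 was far above the other Control libraries (log2 difference -1.11 ± 0.33, limma adjusted p = 0.0281). Col9a3, a chain of the fibril-associated type IX known from cartilage, had 74.1, 76.8, 51.3, 81.4 and 77.6 in Obese pads, against 487, 89.9, 147, 184 and 154 in Control pads. Its groups did not overlap (log2 difference -1.10 ± 0.30, limma adjusted p = 0.0172). Col20a1, a fibril-associated chain, was at -0.45 ± 0.14 (limma adjusted p = 0.0379). Col7a1 lost its call without Obese 1 or Control 1 (up to limma adjusted p = 0.104, with a log2 difference of -0.71 without Control 1), Col9a3 without Control 1 (0.0684), and Col20a1 without any of Obese 1, 2 or 5 or Control 1, 4 or 5 (up to 0.123). With the luminal marker mean as a covariate, 6 members and 2647 of all genes were called, against 10 and 2496 without it. All of these falls were lost in that fit. The luminal epithelium list of 11 genes moved with them: it averaged 10.5 ± 0.33 in Obese pads and 11.3 ± 0.59 in Control pads (log2, SD), 3 of its 11 genes were lower in Obese pads, and its part in these results was not tested. Of 5 basal epithelium markers, 1 was higher and 1 lower in Obese pads, with a median log2 difference of -0.49. The basal list mean was 9.46 to 10.3 in Obese pads and 9.26 to 10.9 in Control pads, highest in Control 1. Its part was not tested either. The 250 bases before the start of Col7a1 are shown beside these values (chr9:108953336-108953585, plus strand, same source). Capitals mark the matches to the searched motifs, 1 CCAAT box on the reverse strand and 1 GC box.
Col7a1: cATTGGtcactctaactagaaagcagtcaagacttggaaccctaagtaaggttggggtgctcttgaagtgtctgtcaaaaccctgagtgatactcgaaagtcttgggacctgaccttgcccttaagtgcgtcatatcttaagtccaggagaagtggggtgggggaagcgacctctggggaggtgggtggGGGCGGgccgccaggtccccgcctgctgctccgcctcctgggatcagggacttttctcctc

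Lists of genes that process collagen were counted in Obese pads, where 9.44% of all genes were called higher and 3.44% lower. Of 12 genes for propeptide removal and crosslinking, 6 were higher and none lower (median log2 difference 0.64). They included Lox, the crosslinking lysyl oxidase, with 6997 ± 2952 counts in Obese pads and 1908 ± 563 in Control pads (1.78 ± 0.37, limma adjusted p = 0.00311), and Pcolce, the enhancer of propeptide removal (1.06 ± 0.23, limma adjusted p = 0.00369). Of 20 folding and modification genes, 5 were higher and 1 lower (median 0.42): the prolyl hydroxylase P3h1 (0.79), its partner Crtap (0.49) and the lysyl hydroxylases Plod1 (0.61) and Plod3 (0.56) were among those higher. Serpinh1, the collagen chaperone, did not pass (limma adjusted p = 0.214).

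Other matrix lists were counted in the same way. Of 17 other basement membrane genes, 7 were higher and 1 lower in Obese pads (median 0.66), with Sparc, a collagen-binding protein, at 106316 ± 33953 counts in Obese pads and 31205 ± 7993 in Control pads (1.73 ± 0.26, limma adjusted p = 0.000193). The heparan sulfate proteoglycan Hspg2 was at 1.46, Nid1 at 1.15 and Tinagl1 at 1.46. Of 15 small proteoglycan and fibril-associated genes, 5 were higher and none lower (median 0.45), including Thbs2 (2.09), Prelp (1.85) and Bgn (0.78). Of 16 breakdown and uptake genes, 5 were higher and 1 lower (median 0.44). Mrc2, the endocytic collagen receptor, had 6337 ± 2689.9 counts in Obese pads and 693 ± 267 in Control pads (3.09 ± 0.36, limma adjusted p = 1.5e-05). Of 9 collagen receptor genes tested, 3 were higher, among them the integrin chains Itga1 (1.18) and Itgb1 (0.71), and 2 lower. Macrophage markers moved with these lists: 4 of 9 were higher, and the list mean was 10.6 to 11.9 in Obese pads and 9.69 to 10.9 in Control pads, and 2 of 13 fibroblast markers were higher, Pdgfrb (0.76) and Gsn (1.02). Of 10 adipocyte markers 4 were higher (median log2 difference 0.62), with list means of 15.0 ± 0.49 in Obese pads and 14.2 ± 0.67 in Control pads (SD). The part of these markers in the matrix results was not tested.

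**Figure D3:**
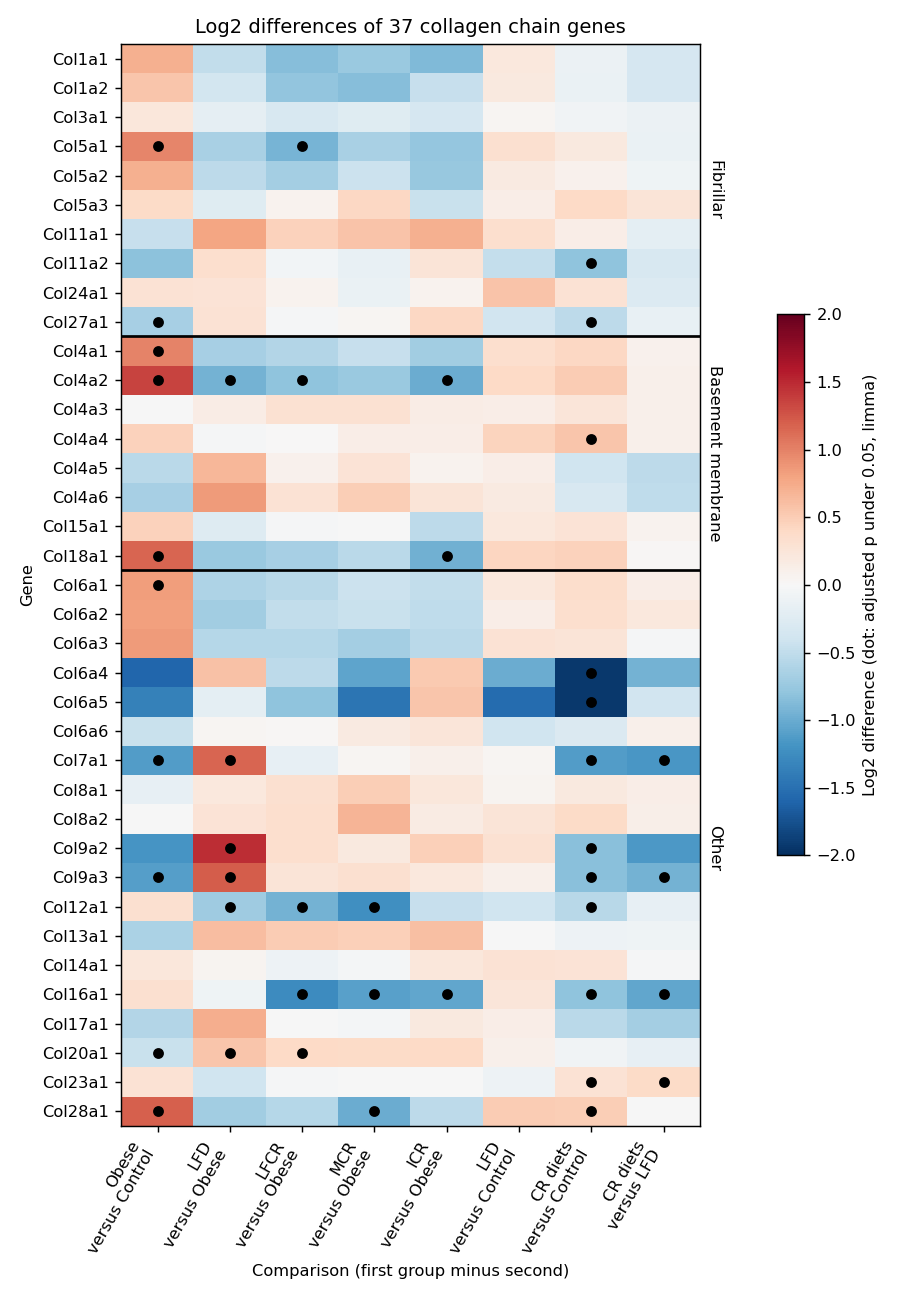
Log2 difference (color, first group minus second) of each of the 37 collagen chain genes in 8 comparisons, with a dot where the limma adjusted p was under 0.05, in blocks of fibrillar, basement membrane and other types. Col4a1, Col4a2, Col18a1 and the type VI chains Col6a1, Col6a2 and Col6a3 are red in Obese against Control and blue in each diet against Obese, although few of the blue cells carry a dot, and Col16a1 is blue with dots in each CR diet.

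The 4 diets given after obesity were each compared with the Obese group. These 4 comparisons and the one above share the Obese libraries, so their opposite signs are partly built in and their values stand side by side only. In LFD pads 4 members were higher and 2 lower, where 5.98% of all genes were called (2.7% higher and 3.28% lower). In LFCR pads 1 was higher and 4 lower, where 21.4% were called (11.9% higher and 9.42% lower). In MCR pads 0 were higher and 3 lower, where 12.4% were called (6.66% higher and 5.69% lower). In ICR pads 0 were higher and 3 lower, where 9.21% were called (3.99% higher and 5.23% lower). Without the 8 libraries low in B cell markers, 0 members were called in LFD pads, 6 in LFCR, 2 in MCR and 2 in ICR, beside 171 of all genes for LFD, 3600 for LFCR, 101 for MCR and 2629 for ICR.

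Of the basement membrane chains, Col4a2 was lower in LFD, LFCR and ICR pads than in Obese pads. It had 26641, 20549.5, 14780.2, 17185 and 16345 in LFD pads, 29877, 17376, 25145, 16569 and 16771 in LFCR pads, 24602, 10764, 29225 and 27384 in MCR pads and 19350.2, 19546, 16294, 17831 and 17603 in ICR pads, against 42709, 32638, 35314, 20898 and 58500.0 in Obese pads. All 5 ICR libraries lay below the Obese range, whereas at least 1 library of each of the other diets lay above Obese 4. The log2 differences were -0.94 ± 0.26 (limma adjusted p = 0.0286) for LFD, -0.81 ± 0.26 (adjusted p = 0.0242) for LFCR, -0.74 ± 0.27 (adjusted p = 0.0726) for MCR and -0.99 ± 0.26 (adjusted p = 0.0142) for ICR. The LFD call was lost without LFD 3, 4 or 5 or Obese 1, 3 or 5 (up to limma adjusted p = 0.0900), the LFCR call without LFCR 2, 4 or 5 or Obese 1 or 5 (up to 0.0812) and the ICR call without Obese 5 (0.0534). With the luminal covariate, which averaged 11.7 ± 0.58 in LFD pads and 10.5 ± 0.33 in Obese pads, the LFD difference was -1.02 with a limma adjusted p of 0.374.

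Col18a1 was lower in ICR pads. It had 2850.3, 4095, 2754, 2386 and 3440.1 there, against 8209, 4902, 5514, 3645 and 9237 in Obese pads, where ICR 2 overlapped with Obese 4 (log2 difference -0.96 ± 0.29, limma adjusted p = 0.0352). In LFD, LFCR and MCR pads its log2 differences of -0.74, -0.66 and -0.53 did not pass. The ICR call was lost without ICR 1, 3 or 4 or Obese 1, 3 or 5 (up to limma adjusted p = 0.106). Col4a1 did not pass in any diet, with log2 differences of -0.66 for LFD, -0.58 for LFCR, -0.45 for MCR and -0.69 for ICR. Beside these values, the endothelial marker Pecam1 was lower in all 4 diets (from -0.47 in LFD to -0.63 in LFCR). Of the 7 endothelial markers 1 was lower for LFD, LFCR and MCR each and 3 for ICR, where the list median was -0.53. Their part was not tested.

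Of the fibrillar chains, 1 gene in 1 diet passed. Col5a1 had 6159.8, 3486, 5579.9, 3313 and 4564 in LFCR pads, against 10963, 6717, 8288, 5498 and 13777 in Obese pads. The ranges overlapped (log2 difference -0.93 ± 0.31, limma adjusted p = 0.0309), and the call was lost without LFCR 2 or 4 or Obese 1 or 5 (up to limma adjusted p = 0.0917). Col1a1 was at -0.50 for LFD, -0.85 for LFCR, -0.75 for MCR and -0.89 for ICR (limma adjusted p = 0.481, 0.0890, 0.208 and 0.121). Its counts spread over 10789.7 to 38950.0 in LFD pads and 6461 to 20768 in ICR pads. Col3a1 differed least of the main fiber chains, from -0.33 in ICR to -0.19 in LFD. The type VI chains Col6a1, Col6a2 and Col6a3 had log2 differences between -0.69 (Col6a2 in LFD) and -0.43 (Col6a1 in MCR), none of which passed.

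Col16a1, a fibril-associated chain also found at cell surfaces, was the member that was lower in all 3 CR diets. Its counts were 616, 631, 829.6, 1092 and 913 in LFCR pads, 1247, 624, 763 and 1112 in MCR pads and 1163, 883, 907, 651 and 1139.9 in ICR pads, against 2188, 1784, 1517, 1575 and 2971 in Obese pads. All 14 CR libraries lay below all 5 Obese libraries. The log2 differences were -1.26 ± 0.28 (limma adjusted p = 0.00176) in LFCR, -1.08 ± 0.29 (adjusted p = 0.0156) in MCR and -1.04 ± 0.28 (adjusted p = 0.0168) in ICR. LFD pads had 3398, 1491, 1362, 2359 and 1246, a range that spans the Obese libraries (log2 difference -0.088 ± 0.28, limma adjusted p = 0.924). The LFCR call held without any single library and in all 9 other settings. The MCR call was lost without MCR 3 (limma adjusted p = 0.0600) and the ICR call without ICR 4 or Obese 5 (up to 0.0593), and both were lost without the 8 libraries low in B cell markers. In that fit the log2 difference was -1.34 in MCR, with 1 MCR library left and 101 of all genes called (limma adjusted p = 0.180), and -0.79 in ICR (0.0615). The 250 bases before the start of Col16a1 are shown because it carried the largest shared fall of the CR diets (chr4:130047590-130047839, plus strand, same source). They are 75.6% G and C, against a median of 52.4% over 32851 windows of this length, and the capitals mark 1 GC box and 1 CCAAT box.
Col16a1: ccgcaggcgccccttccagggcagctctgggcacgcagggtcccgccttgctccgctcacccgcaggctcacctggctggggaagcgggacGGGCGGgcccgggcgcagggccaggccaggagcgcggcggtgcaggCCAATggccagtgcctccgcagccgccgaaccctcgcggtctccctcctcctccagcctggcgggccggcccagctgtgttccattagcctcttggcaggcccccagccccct

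Promoter windows were held for 31 of the 37 members. A GC box stood in 64.5% of these members and in 32.7% of all windows, a CCAAT box in 35.5% and 33.8%, and a TATA box in 12.9% and 12.4%. A member counted if any of its windows held the motif, whereas all windows were counted singly, so the shares differ in unit. These are letter matches only. Col1a1, Col4a3, Col5a2, Col9a3, Col12a1 and Col14a1 had no entry.

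Col12a1, which binds fibers in tissues under tension, was lower in LFD, LFCR and MCR pads. It had 1133, 607, 589, 900.3 and 422 in LFD pads, 677, 506, 464, 728 and 592 in LFCR pads, 484, 629, 341 and 489 in MCR pads and 579, 992, 935, 784 and 920.0 in ICR pads, against 1175, 1086, 1206, 952 and 1355 in Obese pads. All LFCR and MCR libraries lay below the Obese range, and LFD 1 and ICR 2 lay inside it. The log2 differences were -0.71 ± 0.22 (limma adjusted p = 0.0493) for LFD, -0.94 ± 0.22 (adjusted p = 0.00263) for LFCR, -1.23 ± 0.23 (adjusted p = 0.00115) for MCR and -0.46 ± 0.22 (adjusted p = 0.201) for ICR. The LFCR call held without any single library and in all 9 other settings. The LFD call was lost in 8 of 10 fits without 1 library (all but those without LFD 1 or Obese 4, up to limma adjusted p = 0.164), and the MCR call was lost without the 8 libraries low in B cell markers (0.435). Col14a1, its close relative, was between -0.10 and 0.23 in the 4 diets.

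Col28a1 was lower in MCR pads, with 196, 96.7, 219 and 238 there, against 528, 398, 342, 263 and 419 in Obese pads. The groups did not overlap (log2 difference -0.99 ± 0.24, limma adjusted p = 0.00722). The call held without any single library but was lost in a fit of only MCR and Obese libraries (limma adjusted p = 0.0601). In LFD, LFCR and ICR pads the log2 differences were -0.70, -0.58 and -0.53 (limma adjusted p = 0.0652, 0.0684 and 0.147).

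Col7a1, Col9a2, Col9a3 and Col20a1 were higher in LFD pads than in Obese pads. Col7a1 had 1189, 545, 418, 840.0 and 666 in LFD pads, against 262, 284, 298, 241 and 404 in Obese pads, with no overlap (log2 difference 1.16 ± 0.33, limma adjusted p = 0.0385). Col9a2, the second type IX chain here, had 539, 267, 208, 349 and 157 in LFD pads, against 91, 74.4, 47.9, 116 and 107 in Obese pads, also with no overlap (log2 difference 1.48 ± 0.40, limma adjusted p = 0.0286). Col9a3 was at 1.21 ± 0.30 (adjusted p = 0.0187) and Col20a1 at 0.56 ± 0.14 (adjusted p = 0.0215) in limma. In LFCR pads Col20a1 was also higher (0.40 ± 0.14, limma adjusted p = 0.0484). The luminal epithelium list was higher as well: 8 of its 11 genes were called, among them Epcam (1.29). Its list mean was 10.8 to 12.3 in LFD pads, against 10.1 to 10.9 in Obese pads. Of 5 basal epithelium markers, 1 was higher and 1 lower in LFD pads, with a median log2 difference of 0.57. The basal list mean was 9.73 to 10.9 in LFD pads, highest in LFD 1 and LFD 4, against 9.46 to 10.3 in Obese pads. Its part was not tested.

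With the luminal mean as a covariate 0 of the 6 LFD calls remained, and over all genes 12 were called in that fit, against 1159 without the covariate. The log2 differences in that fit were 0.46 for Col7a1, 0.29 for Col9a2, 0.73 for Col9a3 and 0.28 for Col20a1, and -1.02 for Col4a2 and -0.64 for Col12a1, the 2 members lower in LFD pads. The limma adjusted p with the covariate was 0.689 for Col7a1, 0.816 for Col9a2, 0.553 for Col9a3 and 0.597 for Col20a1. Of 5 cartilage markers 2 were expressed highly enough to test, and neither was higher in LFD pads (Comp was lower, -0.67). Without 1 library the Col7a1 call was lost in 7 of 10 fits (without LFD 1, 4 or 5 or Obese 1 to 4), the Col9a2 call in 5 (LFD 1 or 4 or Obese 1 to 3), the Col9a3 call in 3 (LFD 1 or 4 or Obese 3) and the Col20a1 call in 5 (LFD 4 or 5 or Obese 1, 2 or 5), with limma adjusted p up to 0.103, 0.0798, 0.0537 and 0.0688. The Col20a1 call in LFCR pads was lost in 6 of 10 (LFCR 2, 3 or 4 or Obese 1, 2 or 5, up to 0.143).

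**Figure D4:**
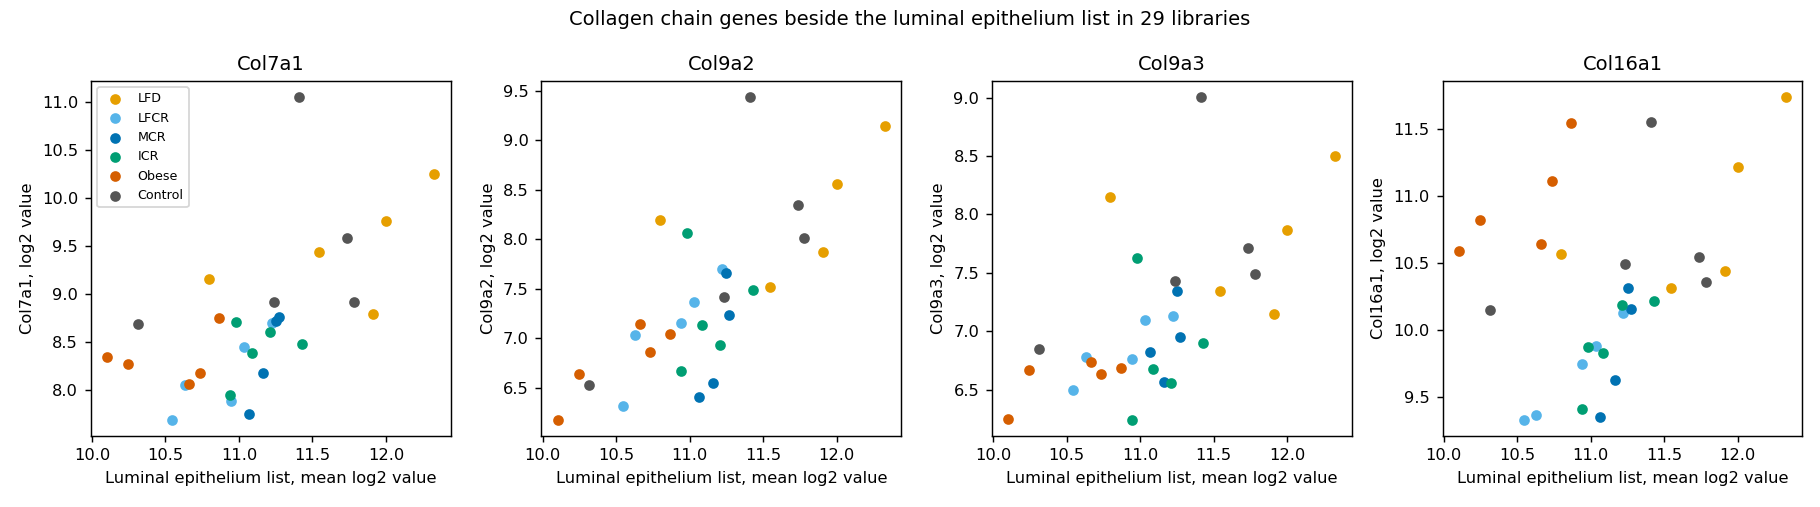
Log2 value of Col7a1, Col9a2, Col9a3 and Col16a1 against the mean log2 value of 11 luminal epithelium markers, with 1 point for each of the 29 libraries colored by group. Col7a1, Col9a2 and Col9a3 are high in LFD 1, which has the highest list mean, but highest in Control 1, whose list mean is 11.4. The Obese libraries are at the low end of the list but high in Col16a1.

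The matrix lists were also counted in the diets against Obese pads, and these lists were chosen with earlier results of these data known. Their counts stand beside the shares of all genes called given above, among them 11.9% higher and 9.42% lower in LFCR pads. In LFCR pads 7 of 12 propeptide and crosslinking genes were lower than in Obese pads and none higher (median log2 difference -0.72), including Pcolce (-1.01), Adamts14 (-1.07) and Lox (-1.04). In MCR and ICR pads 2 of the 12 were lower in each, and in LFD pads 1. Of 20 folding genes, 6 were lower in LFCR pads, 4 in MCR, 1 in ICR and none in LFD, with the collagen galactosyltransferase Colgalt1 lower in all 3 CR diets (-0.53 in LFCR, -0.52 in MCR and -0.32 in ICR). Sparc was lower in all 4 diets (-1.47 for LFD, -1.52 for LFCR, -1.62 for MCR and -1.54 for ICR), as was Hspg2 (from -1.09 in LFD to -0.75 in LFCR).

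The uptake receptor Mrc2 was lower in all 4 diets, at -2.26 for LFD, -2.88 for LFCR, -2.92 for MCR and -2.67 for ICR. Among the fibril-associated proteins, Bgn was lower in all 4 diets (from -0.73 in ICR to -0.92 in MCR), and the collagen receptor chain Itga1 likewise (from -0.83 in LFCR to -1.18 in MCR). Podn, a small proteoglycan, was higher in LFCR (1.15) and ICR pads (1.24). Of the 17 other basement membrane genes, 1 was higher and 2 lower for LFD, 4 lower for LFCR, 4 lower for MCR and 2 lower for ICR. Of the 16 breakdown and uptake genes, 1 was higher and 2 lower for LFD, 4 lower for LFCR, 1 higher and 3 lower for MCR, and 3 lower for ICR. Of the 15 small proteoglycan and fibril-associated genes, 2 were lower for LFD, 1 higher and 6 lower for LFCR, 5 lower for MCR, and 1 higher and 2 lower for ICR. Of the 9 receptor genes, 1 was lower for LFD, 2 for LFCR, 2 for MCR and 1 for ICR. Macrophage markers fell beside them, with 3 of 9 lower for LFD, 7 for LFCR, 6 for MCR and 5 for ICR. Adipocyte markers moved as well: 5 of 10 were higher and 1 lower for LFCR (median log2 difference 0.70), 2 higher and 1 lower for MCR, 1 higher and 1 lower for ICR, and 1 lower for LFD. The part of these markers was not tested.

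Against Control pads, LFD pads had no call among all 19387 genes (0% called), although 2425 genes, 3 of them members, had an unadjusted limma p under 0.05, and voom, a second limma method run on the recovered reads, also called 0. All 8 basement membrane chains had a positive log2 difference, from 0.13 to 0.44, with a median of 0.27 beside 0.0064 for all genes. Col4a2 was at 0.40 ± 0.26 (limma adjusted p = 0.416), and Col28a1 at 0.50 ± 0.23 (limma adjusted p = 0.394). A difference that misses the threshold here does not show that LFD and Control pads were alike.

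The mean of the 3 CR diets was lower than Control in 9 members and higher in 3, against 40.4% of all genes called (19.9% higher and 20.5% lower). The members called lower were Col11a2 and Col27a1 of the fibrillar class and Col6a4, Col6a5, Col7a1, Col9a2, Col9a3, Col12a1 and Col16a1 of the other types. Those higher were Col4a4, Col23a1 and Col28a1. Col16a1 stood at -0.80 ± 0.23 (limma adjusted p = 0.01), with 1107 to 2976 counts in Control pads, and lost its call without Control 1, which had the highest count (limma adjusted p = 0.0672). Col7a1 (-1.12 ± 0.27, limma adjusted p = 0.00442) kept its call without any single library and in all 9 other settings, but its log2 difference was -0.72 without Control 1. Without that library Col9a3 was at -0.52, against -0.84 with it, and lost its call. Beside these values 9 of 10 adipocyte markers were higher in the CR diets than in Control pads (median log2 difference 1.14), and their part was not tested. Col4a2 at 0.50 ± 0.21 (limma adjusted p = 0.0587) and Col18a1 at 0.45 ± 0.24 (limma adjusted p = 0.124) were positive and not called.

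Col6a4 and Col6a5, alternative type VI chains, had the largest log2 differences of the CR diets against Control, -1.93 ± 0.59 (limma adjusted p = 0.0143) and -1.92 ± 0.51 (adjusted p = 0.00712). Col6a4 had 16.1, 199, 17.9, 236 and 301 in LFCR pads, 35.8, 483, 22.8 and 18.2 in MCR pads and 192, 169, 266, 236 and 326 in ICR pads, against 720.1, 824, 391, 339 and 437 in Control pads. The low values belong to the libraries low in B cell markers. Over all groups, the 8 libraries with a low B cell list had 16.1 to 125 counts of Col6a4 and the other 21 had 169 to 824, with no overlap. Col6a5 had medians of 46.8 and 339 in these libraries, Col11a2 42.5 and 109, and Col27a1 430.3 and 609.9. A lower median in the 8 libraries was found in 13 of the 37 members, and the others had a higher one. Among the latter were Col4a1 (40130.5 against 23368), Col4a2 (28304 against 17185), Col18a1 (5660 against 2995) and Col5a1 (7571 against 4736). These medians mix all groups: Obese 1 and 5 are among the 8 libraries, and no Control library is. With the B cell mean as a covariate, Col6a4 had a limma adjusted p of 0.0673, Col6a5 of 0.0556, and 5 members were called in all. Over all genes 2828 were called in that fit, against 7835 without the covariate. Fewer were also called without the 8 libraries, among members and among all genes, where 1 MCR library was left.

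Several of these 12 calls turned on single libraries. Col11a2 was lost without Control 1 (limma adjusted p = 0.0841), Col9a3 without Control 1 (0.0868), Col27a1 without Control 2 (0.0627), Col12a1 without Control 2 (0.0963) and Col6a4 without Control 1 or 2 (up to 0.0550). Col4a4, Col9a2, Col23a1 and Col28a1, with main values of 0.0384, 0.0464, 0.0424 and 0.0361, were lost in 9, 13, 10 and 8 of the 19 fits without 1 library. Leaving out Control 1 took the count to 4, and over all genes to 3810, against 7835 with all libraries.

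The CR diets were also set directly against LFD, the unrestricted weight-loss diet. In CR pads 3 members were lower and 1 higher than in LFD pads, where 3.33% of all genes were called (1.68% higher and 1.65% lower). Col16a1 was lower (-1.04 ± 0.23, limma adjusted p = 0.0158), with means of 816 ± 200.1 in LFCR, 937 ± 291 in MCR and 949 ± 210.4 in ICR pads, against 1971 ± 910.2 in LFD pads (SD). Col7a1 was lower (-1.17 ± 0.27, limma adjusted p = 0.0230) with no overlap between the 14 CR libraries and the 5 LFD libraries, and Col9a3 was lower (-0.95 ± 0.25, limma adjusted p = 0.0362). Col23a1, a transmembrane collagen, was higher (0.39 ± 0.11, limma adjusted p = 0.0494).

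LFD 1 and LFD 4 had the highest luminal list means of all 29 libraries, 12.3 and 12.0. Their basal list means, 10.92 in each, were the highest as well. Without LFD 1 or without LFD 4, 0 of these calls remained, with limma adjusted p up to 0.0955 for Col16a1 and 0.120 for Col7a1. With the luminal covariate, and without the 8 libraries low in B cell markers, 0 remained as well. Few genes of any kind were called in these fits: over all genes, 100 without LFD 1, 165 without LFD 4, 20 with the luminal covariate and 4 without the 8 libraries, against 645 with all libraries. Col9a3 was also lost without LFD 2, LFCR 2, LFCR 3, MCR 3, ICR 2 or ICR 4 (up to 0.159), and Col23a1 in 14 of 19 fits (up to 0.171). The luminal list averaged 10.9 ± 0.28 in LFCR, 11.2 ± 0.094 in MCR and 11.1 ± 0.20 in ICR pads, against 11.7 ± 0.58 in LFD pads, and 3 of its 11 genes were lower in the CR diets. Its part was not tested.

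Among LFCR, MCR and ICR, limma's F test called 0 of 19387 genes (0% called), and voom called 0. At an unadjusted p under 0.05 there were 2506 genes, 3 of them members. The smallest adjusted p of a member was 0.240, for Col12a1, whose means were 593 ± 111 in LFCR, 486 ± 118 in MCR and 842 ± 166 in ICR pads (SD).

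The remaining members, 19 of 37, passed in none of the 8 pairwise comparisons. They include Col17a1, the hemidesmosome collagen of basal epithelium, with 753 ± 148 counts in Obese pads and 1229 ± 565 in Control pads (log2 difference -0.59 ± 0.31, limma adjusted p = 0.202). Col17a1 was at 0.73 ± 0.31 (limma adjusted p = 0.171) in LFD against Obese pads. Col5a3, the type V chain found in adipose tissue, had 7578 ± 3621 in Obese pads and 5482 ± 1946 in Control pads (log2 difference 0.39 ± 0.31, limma adjusted p = 0.396). The short-chain genes Col8a1 and Col8a2, whose product forms a lattice around vessels, were at -0.16 and -0.014 in Obese against Control pads, and the transmembrane Col13a1 at -0.63. Col6a6, a further alternative type VI chain, was at -0.44, the minor fibrillar Col11a1 at -0.45 and Col24a1 at 0.29.

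Chains that share a molecule were also compared within each library, as the ratio of their counts per kb, which does not depend on depth. These ratios were chosen after values had been seen. The ratio of Col4a2 to Col4a1 was 0.874 to 0.948 in Obese pads (mean 0.898 ± 0.029, SD). It was 0.683 to 0.857 in LFD pads, 0.731 to 0.788 in LFCR, 0.681 to 0.769 in MCR, 0.680 to 0.801 in ICR and 0.671 to 0.724 in Control pads. All 5 Obese libraries therefore lay above all 24 others. In a two-sided exact permutation test of log2 ratios, p was 0.00794 for Obese against Control, for LFD against Obese, for LFCR against Obese and for ICR against Obese, and 0.0159 for MCR against Obese, each the smallest that these group sizes allow. Adjusted over the 35 tests of 7 ratios and 5 comparisons these became 0.0556 and 0.0926, so none passed. The log2 difference was 0.36 for Obese against Control, and between 0.34 and 0.37 without any 1 library. The pair is transcribed head to head on chromosome 8 (GRCm38.p6). The RefSeq starts, 11312805 for Col4a2 on the plus strand and 11312826 for Col4a1 on the minus strand, make the genes overlap by 22 bases, where reads cannot be assigned if strand was not used in counting.

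Of the other ratios, Col1a1 to Col1a2 was 0.80 ± 0.096 in ICR pads, against 1.08 ± 0.16 in Obese pads (SD, n = 5 each). The groups did not overlap (two-sided exact permutation p = 0.00794, adjusted p = 0.0556). The type VI ratio of Col6a2 to Col6a1 stayed between 0.88 ± 0.061 in LFD pads and 0.97 ± 0.021 in LFCR pads, with 0.93 ± 0.074 in Obese and 0.94 ± 0.064 in Control pads. Of the 35 tests, 9 had an unadjusted p under 0.05 and 0 an adjusted one.

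**Figure D5:**
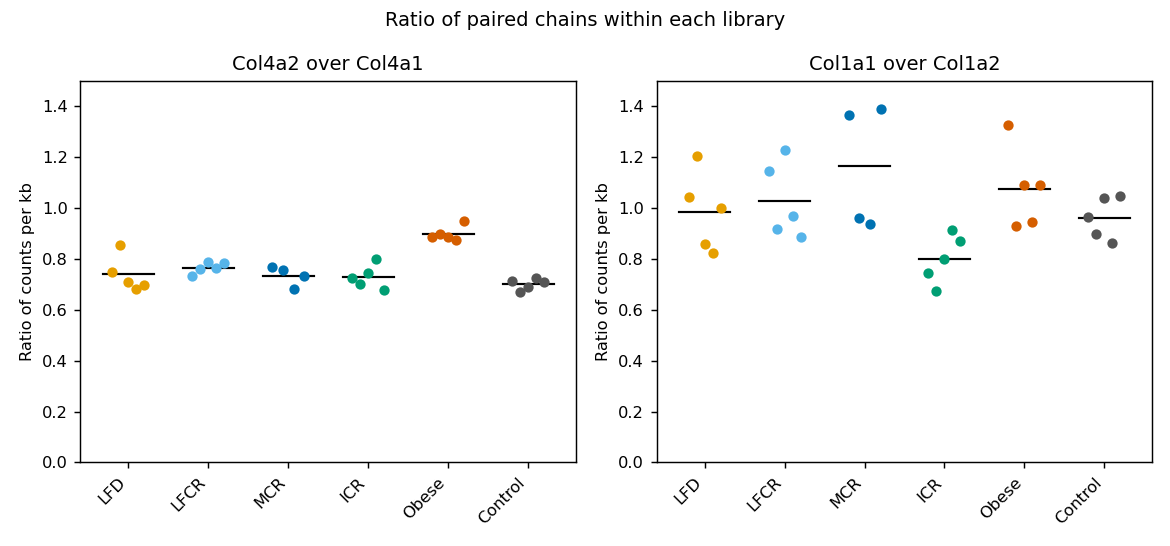
Ratio of counts per kb of Col4a2 over Col4a1 (left) and of Col1a1 over Col1a2 (right) in the 29 libraries, with 1 point per library and a line at the group mean. On the left the 5 Obese libraries, from 0.874 to 0.948, lie above all others, and on the right the ICR libraries lie lowest on average.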

How the data were processed

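RNA of the sampled fat pads was sequenced as paired reads of 76 bases from stranded total RNA libraries, per the labels' protocols. The authors deposited 1 table of log2 values for all 29 libraries. TopHat2 2.0.7, HTSeq 0.5.3p9, DESeq2 and the build mm10 are named in the submitters' processing notes. Not given in the sources used here are the annotation and the counting options. The deposited log2 values have the form of a variance-stabilising transform, which is inferred from the values and stated by no source. Undoing it gave normalized counts, and all values then came out as whole reads within 0.01 (largest distance 4.00e-08), so the read counts behind the deposited values, and the depth, could be recovered. The transform compresses differences between low values.

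Genes with a normalized count of 10 or more in at least 4 libraries (19387) were fitted with limma 3.58.1 (R 4.3.3) on the log2 values, with trend and robust moderation and 1 mean per group over all 29 libraries. P-values were Benjamini-Hochberg adjusted over all genes, with a threshold of 0.05. The CR diets enter as the mean of their 3 group means. No count model was used as the main test, since the deposited unit is log2, and voom with TMM on recovered reads was an alternative. The fit was tested on simulated data. Levels per kb use the longest principal GENCODE M21 transcript of each gene. Promoter sequences and the pair of type IV starts are RefSeq's. Python 3.11.15, numpy 2.4.6, scipy 1.17.1 and pandas 2.3.3 were used. Groups came from the labels.

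The members, lists, tests and alternatives were chosen with earlier results of these data known. The rule named 14 chains of the main types, and for each comparison up to 3 members per class and direction and up to 4 genes per list with the smallest adjusted p. Other genes named here were added after their values were seen. Marker lists of smooth muscle, basal epithelium, keratinocytes, Schwann cells, skeletal muscle and cartilage are described only where a result stood beside them. 1 gene of the companion lists is not reported here.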

Additional observations from a re-analysis of the deposited data

Results flagged for a closer look

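A library far from the rest of its group was found in 12 of 222 combinations of member and group. Chance gives about 1 in 20. In 5 of them the library was MCR 2, the only MCR library with a B cell list mean above 9. MCR 2 was also the shallowest of all 29 libraries, with 16403903 reads in lane 4. It is the MCR library left where the 8 libraries low in B cell markers were taken out. MCR 2 had 8409 counts of Col1a1, against 16413 to 18738 in the other MCR libraries, 4351 of Col5a3 (10848 to 12674 in the others) and 23.7 of Col4a3 (50.8 to 53.9). It had 153 of Col11a2 (42.4 to 50.8 in the others) and 483 of Col6a4 (18.2 to 35.8).

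In Obese pads, Obese 1 had 24.7 counts of Col6a5, against 327 to 376 in the others, Obese 5 had 80.7 of Col11a1 (36.8 to 46.2), and Obese 3 had 51.3 of Col9a3 (74.1 to 81.4). Control 1 had 2976 of Col16a1, against 1107 to 1469 in the other Control libraries. LFD 1 had 385 of Col28a1 (180.0 to 214 in the others), LFCR 4 had 99.7 of Col8a2 (50.9 to 61.6), and ICR 4 had 398 of Col4a6 (742 to 931).

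The contrast of CR diets minus LFD was called with limma in 4 members, where 3.33% of all genes were called. The log2 difference was -1.17 for Col7a1, -0.95 for Col9a3, -1.04 for Col16a1 and 0.39 for Col23a1. No member was called without LFD 1, without LFD 4 or with the luminal covariate. Over all genes 100, 165 and 20 were called in these fits, against 645.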

How the results depend on the processing

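Of 43 calls of a member in a comparison, 9 held without each library in turn, 10 in each of 9 other settings and 6 in both: Col4a2, Col18a1 and Col28a1 in Obese against Control, Col12a1 and Col16a1 in LFCR against Obese, and Col7a1 in the CR diets against Control. No call changed direction. Calls were lost most often without the 8 libraries low in B cell markers (30 of 43) and with the luminal covariate (19), and least with array quality weights (0). 37 of the 43 had the same direction in every lane that held both groups. The exceptions were Col4a2 and Col5a1 in LFCR against Obese, and Col4a4, Col9a2, Col23a1 and Col28a1 in the CR diets against Control.

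The number of members called moved by over 1.5 times in these settings. In Obese against Control (10 called) it was 5 without the low B cell libraries, 6 with the luminal covariate, 17 with array quality weights and 5 in a fit of only those groups. In LFD against Obese (6) it was 3 with quantile normalization, 16 with the B cell covariate, 18 with array quality weights, and 0 without the low B cell libraries, with the luminal covariate and in a fit of only those groups. In LFCR against Obese (5) it was 14 with the B cell covariate and 18 with array quality weights. Over all genes 5958 and 7716 were called there, against 4142 in the main fit. In MCR against Obese (3) it was 6 with quantile normalization, 13 with the B cell covariate and 13 with array quality weights. Over all genes 2428, 3529 and 9860 were called there, against 2395. In ICR against Obese (3) it was 7 with the B cell covariate, 6 with array quality weights and 5 in a fit of only those groups. Over all genes 3950, 4500 and 1407 were called there, against 1786. In the CR diets against Control (12) it was 5 with the B cell covariate and 3 without the low B cell libraries. In the CR diets against LFD (4) it was 0 without the low B cell libraries and with the luminal covariate. Among the CR diets (0) it was 1 with the B cell covariate and 12 with array quality weights. Over all genes 644 and 5406 were called there, against 0 in the main fit. The number of all genes called moved with the setting too: in LFD against Obese (1159) it was 989 with quantile normalization, 2522 with the B cell covariate, 3744 with array quality weights, 171 without the low B cell libraries, 12 with the luminal covariate and 140 in a fit of only those groups, and with array quality weights it reached 9860 in MCR against Obese (2395). In Obese against Control (2496) it was 2647 with the luminal covariate, 3454 with array quality weights and 1082 in a fit of only those groups. In the CR diets against Control (7835) it was 2828 with the B cell covariate. In the CR diets against LFD (645) it was 20 with the luminal covariate. The cause was not tested in any of these.

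Without 1 library the counts ranged from 4 to 15 in Obese against Control, 0 to 8 in LFD, 2 to 11 in LFCR, 2 to 5 in MCR and 0 to 5 in ICR against Obese, 4 to 14 in the CR diets against Control, 0 to 5 in the CR diets against LFD, 0 to 1 among the CR diets and 0 in LFD against Control. The libraries whose absence moved a count by over 1.5 times were Obese 1, Obese 5 and Control 1 in Obese against Control, LFD 4, LFD 5 and Obese 1, 2, 3 and 5 in LFD against Obese, LFCR 2, LFCR 4 and Obese 1, 4 and 5 in LFCR against Obese, MCR 2 in MCR against Obese and among the CR diets, ICR 4, Obese 4 and Obese 5 in ICR against Obese, Control 1 in the CR diets against Control, and LFD 1, LFD 4, LFCR 2, LFCR 3, MCR 3, ICR 2 and ICR 4 in the CR diets against LFD. The number of all genes called moved as well. Without Control 1 it was 1357 in Obese against Control (2496) and 3810 in the CR diets against Control (7835). The settings for the chain ratios were chosen after seeing the data. No paired analysis was possible because the labels give each animal its own number and none shared between groups. Lane, which the headers give, was a term in 1 of the settings instead. The shallow libraries of lane 4 limit the precision of Col4a3, Col24a1 and other low chains most.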

Other observations

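The 7 collagen symbols below the member minimum were low in all groups. Of them 4 entered the fit. Counted with the members, they took the calls from 10 to 11 in Obese against Control and from 12 to 13 in the CR diets against Control. Against Obese the calls went from 6 to 7 in LFD, 5 to 6 in LFCR and 3 to 4 in MCR and in ICR. Their values are given here without test results. Col2a1, the main cartilage fibril chain and the partner of type IX collagen in cartilage, had 0 to 12.1 normalized counts over the 29 libraries, while Col9a2 reached 665 in Control 1 and 539 in LFD 1. Col9a1, the third type IX chain, had a median of 6.27 counts and its highest values in Control 1 (101) and LFD 1 (40.9). Col25a1, a transmembrane collagen known from neurons, had 66.2 in LFD 1 and 52.9 in Control 1. Col26a1 had 8.22 to 27.4 counts in Obese pads, against 3.62 to 9.61 in Control pads. Col10a1, known from growth plate cartilage, reached 13.2 at most, Col19a1 13.6 and Col22a1 16.5.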
